A study of Saccharomyces cerevisiae with 4 samples.

Results

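The small subunit of the cytosolic ribosome of budding yeast, Saccharomyces cerevisiae, is built from proteins encoded by the RPS genes. Members were all genes on the array whose standard symbol is RPS with a number and an optional A or B, which gave 56 of 6256 genes. They fall into 32 families. In 24 families 2 genes, A and B, encode nearly the same protein, and 8 families have a single gene. All 56 entered the test of 5343 genes, and all 56 were well above background on all 16 channels of the 8 arrays.

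The small subunit binds messenger RNA, scans it for the start codon and checks the pairing of codon and anticodon, while the large subunit joins the amino acids. Its body and platform hold the decoding site and the paths by which messenger RNA enters and leaves, and its head carries part of the tRNA sites. Ribosomal protein genes are among the most strongly transcribed genes of yeast in glucose. The transcription factor Rap1 binds most of their promoters and recruits Fhl1, Ifh1 and Sfp1, and the TOR and protein kinase A pathways control these factors.

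The parental strain was BY4741, and the mutant, labelled DampERG12, carries a DAmP allele of ERG12, the mevalonate kinase gene, in which a disrupted end of the gene lowers the transcript. Per the labels it keeps 10% of the parental enzyme activity, and the labels do not say whether it came from more than a single clone. Both strains were grown in synthetic YNB medium with 20 g/L glucose at 30 °C and 150 rpm and then moved to the same medium with 20 g/L glucose or 20 g/L glycerol. The question of the series is the effect of low mevalonate kinase on gene expression with either carbon source. The 4 comparisons, with 2 arrays of biological replicates each, set glycerol against glucose within the parental strain and within the mutant, and the mutant against the parental strain within glucose and within glycerol. The labels do not agree on the time before harvest: a 1 h incubation after the change of medium (design text), growth from OD600 0.1 until 0.5, which was as dense as the mutant became in glycerol (growth protocol), or 1 h in acid YPD of pH 2.5 (treatment protocol). Carbon source, growth stage and acid exposure cannot be told apart where these differ between the RNAs.

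The RNA named first carried Cy5 and the other Cy3 on every array, so each ratio includes whatever dye bias its probe has. A single slide carried all 8 arrays. Replicates sat in slide rows 1 and 2 and every comparison had its own slide column, so comparison and column cannot be told apart. Median channel signals were 133.25 to 742.75 scanner units, with 4917 to 5499 genes a channel passing the background flag. Replicate arrays correlated across genes, which are not independent replicates, at 0.953 and 0.898 for the glycerol responses of the parental strain and the mutant, and at 0.716 and 0.511 for the strains in glucose and in glycerol. URA3, a marker gene deleted in BY4741, passed the background flag in 8 of 8 channels of mutant RNA and in 3 of 8 of parental RNA, with 0 of these on the arrays that held parental RNA alone. In limma the log2 ratio of URA3, mutant over parental, was 5.55 in glucose (adjusted p = 3.49e-07) and 5.29 in glycerol (adjusted p = 5.11e-07). URA3 expression and the ERG12 allele thus differ together between the strains and cannot be told apart in the comparisons of the strains. ERG12 passed in 1 of 8 mutant and 5 of 8 parental channels. Of the other deletion markers of BY4741, LEU2 and HIS3 were above background in 0 channels, while MET17, deleted in BY4741 as met15, was above background in all 16. In limma MET17 was higher in the mutant in glycerol (1.26, adjusted p = 0.0153). BY4741 is of mating type a. Of the a-cell genes, STE6 passed in 8 mutant and 8 parental channels, MFA1 in 6 and 7, STE2 in 3 and 3, MFA2 in 0 and 2, and BAR1 in 0 and 0. Of the alpha-cell genes, STE3 passed in 2 and 2, MF(ALPHA)1 in 2 and 1, and MF(ALPHA)2 in 0 and 0. The RPS probes were bright: 34 of the 56 lay in the brightest 10% of genes, 0 of their spots were saturated or outliers, and the 2 spots of a gene differed by at most 0.684 on the log2 scale. A and B copies are close in sequence, and whether their probes share signal was not analysed here, so differences within a pair are uncertain in size.

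RPS transcripts were lower in glycerol than in glucose in the parental strain. All 56 fell at an adjusted p under 0.05 in limma, where 30.5% of all genes tested were called lower. The median log2 ratio was -1.35, with medians of -1.52 and -1.20 on the arrays of slide rows 1 and 2, against -0.01 over all genes tested. All 56 were below 0 on both arrays, 41 had a mean at least 2-fold lower, and 34 were at least 2-fold lower on both arrays. Shares of all genes tested at these 3 thresholds were not computed, and the lower quartile of all genes tested was -0.44. On cultures measured in bulk, a change in some cells cannot be told apart from a change in all of them. Ratios are relative to the bulk of the genes on an array, because loess normalization centres them there. Spike-in RNA lay 0.549 to 2.54 above the median gene on all 8 arrays. The designed ratios of the spike-ins are not given in the sources used here, so centring on them takes them as balanced between the dyes, which was not tested. Centred on the spike-ins, the RPS median was -3.92 and the median of all genes was -2.20, so the RPS median lay at -1.72 relative to the median gene.

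The 5 members that fell furthest in the parental strain belong to the body and platform, except RPS18B. Of all 56 members, 34 belong to the body and platform. Their median was -1.35, against -1.40 for the 22 head genes. RPS9A (YPL081W), whose protein uS4 helps to set decoding accuracy, had log2 ratios of -2.62 and -2.58 on its arrays. Its scanner signal was 238.5 and 73.2 units in the glycerol channel and 2785.8 and 3211 units in the glucose channel. The fitted ratio was -2.60 ± 0.29 (SE, n = 2 arrays, adjusted p = 0.000136), or 6.06-fold lower. RPS4A (YJR145C) and RPS4B (YHR203C) encode eS4, a protein of the body. RPS4A had -2.27 and -2.86 (fitted -2.57 ± 0.21 SE, adjusted p = 2.8e-05), and RPS4B had -2.09 and -2.61 (fitted -2.35 ± 0.19 SE, adjusted p = 2.42e-05). Both copies of RPS4 were thus among the 4 lowest members on the mean, and slide row 2 was the lower array for each. RPS18B (YML026C), one copy for the head protein uS13 that bridges to the large subunit, had -2.47 and -2.65 (fitted -2.56 ± 0.17 SE, adjusted p = 9.35e-06). RPS14A (YCR031C), for the platform protein uS11, had -2.15 and -2.30 (fitted -2.23 ± 0.12 SE, adjusted p = 3.78e-06). Each of these 5 genes stayed called lower under all 19 alternative fits.

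The smallest falls were those of RPS30B, RPS30A, RPS25B, RPS26A and RPS22B. RPS30B (YOR182C), for the small basic protein eS30, had -0.63 and -0.15 (fitted -0.39 ± 0.13 SE, adjusted p = 0.0339). RPS30A (YLR287C-A) had -0.73 and -0.14 (fitted -0.43 ± 0.16 SE, adjusted p = 0.0449). RPS25B (YLR333C), for the head protein eS25, had -0.58 and -0.35 (fitted -0.46 ± 0.12 SE, adjusted p = 0.00913). In all of these the array of slide row 1 was the lower. RPS26A (YGL189C), for eS26 at the messenger RNA exit, had -0.88 and -0.11 (fitted -0.49 ± 0.17 SE, adjusted p = 0.0361). RPS22B (YLR367W), for uS8, had -0.62 and -0.38 (fitted -0.50 ± 0.19 SE, adjusted p = 0.0496). The calls of all 5 rest on few arrays: the one for RPS25B ended without the array of slide row 1, that for RPS30B without that array or with median centring, and those for RPS26A, RPS30A and RPS22B under 3, 8 and 6 of 19 alternatives. RPS30B, RPS30A and RPS22B were the 3 dimmest members in the glucose channel, and the offset of 50 used in background correction pulls ratios of dim spots towards 0. With an offset of 0 they stood at -0.59, -0.52 and -0.62. The 14 dimmest members had a median of -1.42 and the 14 brightest -1.13. Whether dimness or the offset has a part in these small falls was not tested. RPS26A was among the 5 brightest members, and its ratio was -1.24 when the loess curve was fitted without RPS and RPL spots. Over the 56 members, the rank correlation of glucose signal with log2 ratio was 0.18, a description over probes that share the same arrays.

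**Figure D1:**
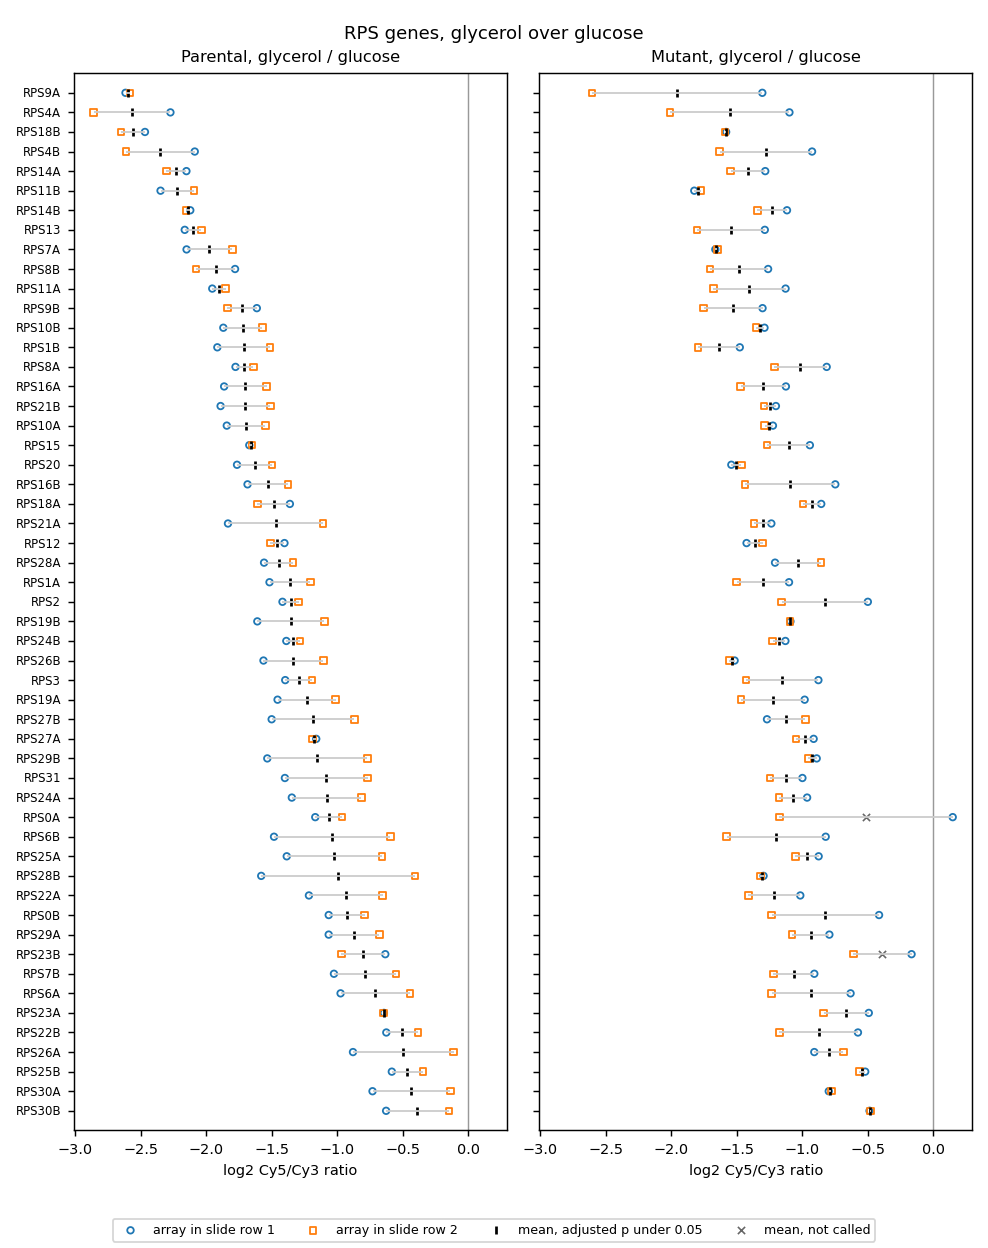
Log2 Cy5/Cy3 ratio (horizontal axis) of 53 of the 56 RPS genes (vertical axis, ordered by the parental mean) for glycerol over glucose in the parental strain (left) and the mutant (right). Circles and squares are the 2 replicate arrays, bars are means called at an adjusted p under 0.05, and crosses are means not called. All parental means shown are called, from -2.60 to -0.39, and 2 mutant means shown (RPS0A and RPS23B) are not.

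In the mutant the RPS transcripts were also lower in glycerol. At an adjusted p under 0.05, 53 of 56 fell and 0 rose, where 21.9% of all genes tested were called lower. The median log2 ratio was -1.17, with -1.01 and -1.29 on the arrays of slide rows 1 and 2. On both arrays 55 genes were below 0, 39 had a mean at least 2-fold lower and 27 were at least 2-fold lower on both arrays. Shares of all genes tested at these thresholds were not computed, and the lower quartile of all genes tested was -0.31. The same 53 genes were called lower in both strains, where 19.6% of all genes tested were.

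RPS9A was again the lowest member, but its arrays lay far apart at -1.31 and -2.61 (fitted -1.96 ± 0.29 SE, n = 2 arrays, adjusted p = 0.00108). RPS11B (YBR048W), for the body protein uS17, had -1.83 and -1.77 (fitted -1.80 ± 0.15 SE, adjusted p = 6.15e-05). RPS7A (YOR096W), for eS7, had -1.67 and -1.65 (fitted -1.66 ± 0.13 SE, adjusted p = 4.52e-05). These 2 were tight between arrays. RPS1B (YML063W), for the platform protein eS1, had -1.48 and -1.80 (fitted -1.64 ± 0.16 SE, adjusted p = 0.000115). RPS18B had -1.58 and -1.59 (fitted -1.59 ± 0.17 SE, adjusted p = 0.00021). All of these 5 calls held under all 19 alternatives.

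The 3 members not called in the mutant all encode proteins shared with bacteria, and RPS0A and RPS23B were among them. This class holds 24 of the 56 members, and 21 of the 24 were called lower. A link between the class and the missing calls was not tested. RPS0A (YGR214W), for uS2 at the back of the body, had 0.15 on the array of slide row 1 and -1.18 on that of row 2 (fitted -0.51 ± 0.33 SE, adjusted p = 0.237), so its arrays differed in sign. RPS23B (YPR132W), for the decoding-site protein uS12, had -0.17 and -0.61 (fitted -0.39 ± 0.15 SE, adjusted p = 0.0678). In both, slide row 1 gave the value nearer to 0 or above it. Their partners were called: RPS0B had -0.42 and -1.24 (adjusted p = 0.0331) and RPS23A had -0.49 and -0.84 (adjusted p = 0.00595). At the other end of the called members, RPS30B had -0.49 and -0.48 (fitted -0.48 ± 0.13 SE, adjusted p = 0.0183) and RPS25B had -0.52 and -0.56 (fitted -0.54 ± 0.12 SE, adjusted p = 0.00636).

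By place in the subunit, 22 of 22 head genes fell in the parental strain and 21 of 22 in the mutant, with medians of -1.40 and -1.11. Of the body and platform genes, 34 of 34 and 32 of 34 fell, with medians of -1.35 and -1.21. The 8 single-copy genes fell in the parental strain with a median of -1.41. RPS13, for a protein that bridges to the large subunit, was the lowest of them at -2.16 and -2.04. In the mutant 7 of 8 single-copy genes fell, with a median of -1.14. The 48 genes with a partner had medians of -1.34 and -1.19.

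Large-subunit genes fell as well, and most mitochondrial small-subunit protein genes rose in the parental strain. Of 75 large-subunit RPL genes tested, 73 fell in the parental strain and 72 in the mutant, with medians of -1.47 and -1.27, close to those of the RPS genes. Over all genes tested, 30.5% were called lower and 31.4% higher in the parental strain, and 21.9% and 24.7% in the mutant. ASC1, a scaffold protein bound to the small-subunit head, fell in both strains (-0.99 and -1.34), as did STM1, a clamp on idle ribosomes (-1.75 and -1.05). All 4 dedicated chaperones (TSR2 for eS26, TSR4 for uS5, YAR1 for uS3, FAP7 for uS11) fell in both strains, with medians of -0.73 and -0.60. Of 12 assembly factors, 7 fell (58.3%) and 1 rose (8.33%) in the parental strain, and 6 fell (50%) and 1 rose (8.33%) in the mutant. The riser was RIO1, a kinase of late subunit maturation, at 1.25 and 0.46. Of 12 initiation factors tested, 6 fell (50%) and 1 rose (8.33%) in the parental strain, and 7 fell (58.3%) and 1 rose (8.33%) in the mutant. SUI2, the alpha subunit of eIF2, was the lowest of them in the parental strain at -1.47. Of 29 mitochondrial small-subunit protein genes tested, 17 rose and 1 (RSM22) fell in the parental strain, with a median of 0.37, where 31.4% of all genes tested were called higher. In the mutant 5 rose, or 17.2%, and 1 (RSM22) fell, with a median of 0.10, where 24.7% of all genes tested were called higher.

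Transcripts of the regulators themselves showed no common direction. Of 6 tested, IFH1, the coactivator at ribosomal protein promoters, fell in the parental strain (-0.42, adjusted p = 0.0248) and in the mutant (-0.45, adjusted p = 0.0232). HMO1, a chromatin protein at many of these promoters, rose in the parental strain (0.64, adjusted p = 0.000716) and stood at -0.08 in the mutant (adjusted p = 0.515). ABF1, which binds some ribosomal protein promoters, rose in the mutant (0.63, adjusted p = 0.00122), and so did CRF1, a corepressor (0.44, adjusted p = 0.0172). RAP1 and SFP1 were not called in either strain. Of 7 TOR pathway genes, LST8 and TOR2 fell (28.6%) and SCH9 rose (14.3%) in the parental strain, and LST8 fell (14.3%) in the mutant. Of the 6 regulators, 16.7% fell in each strain, and 16.7% rose in the parental strain and 33.3% in the mutant. Of all genes tested, 30.5% fell and 31.4% rose in the parental strain, and 21.9% and 24.7% in the mutant. Counts this small are not read as a trait of either list.

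**Figure D2:**
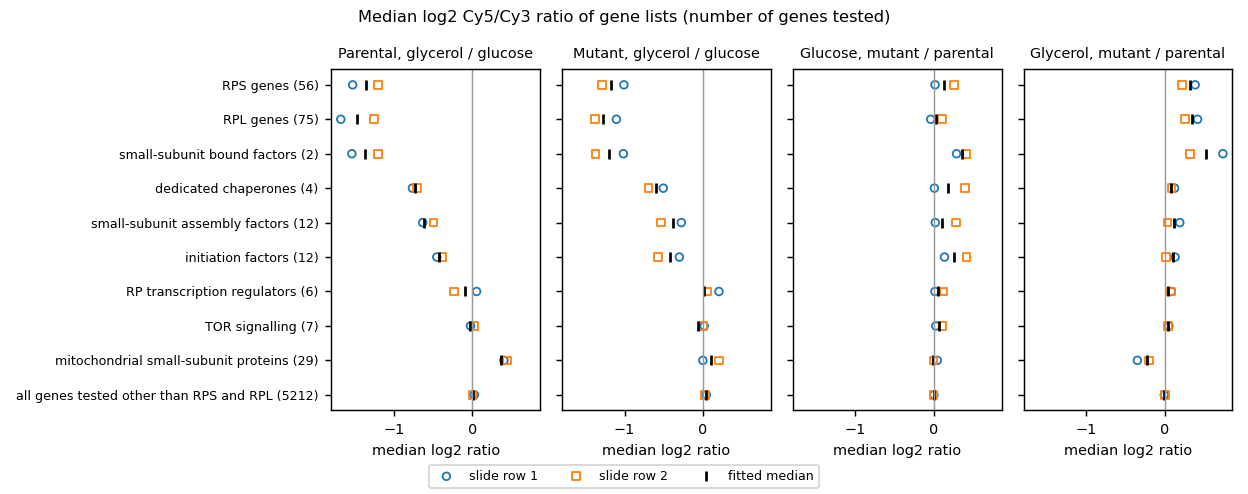
Median log2 Cy5/Cy3 ratio (horizontal axis) of the RPS genes and of the gene lists set beside them (vertical axis, number of genes tested in brackets) in the 4 comparisons. Circles and squares are the medians on the 2 replicate arrays and bars the medians of the fitted ratios. The RPS and RPL medians lie below -1 in both glycerol responses, and the mitochondrial small-subunit proteins lie at 0.37 in the parental one.

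The glycerol responses of the strains ranked the members alike. Over the 56 genes Pearson's r was 0.80 and Spearman's rho 0.82. This is a description over genes: the comparisons share no RNA condition, but they share the slide, the dye orientation and the probes. The difference of the responses, mutant minus parental, had a median of 0.18, and 41 of 56 differences were above 0, where 50.8% of all genes tested were. In limma 0 of 56 differences were called, where 1.87% of all genes tested were. Of the 56, 14 had an unadjusted p under 0.05, and the share of all genes tested at that threshold was not computed.

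The largest differences were those of 5 genes with deep falls in the parental strain. The parental ratio enters the difference with its sign turned, so a deep parental fall raises the difference by construction. RPS14B differed by 0.91 ± 0.19 (SE, adjusted p = 0.0555), having stood at -2.12 and -2.16 in the parental strain and at -1.12 and -1.34 in the mutant, where the arrays of the strains did not overlap. RPS14A differed by 0.81 ± 0.17 (SE, adjusted p = 0.0564). RPS4B differed by 1.07 ± 0.27 (SE, adjusted p = 0.0778) and RPS4A by 1.01 ± 0.30 (SE, adjusted p = 0.113). RPS18B differed by 0.97 ± 0.24 (SE, adjusted p = 0.076). In these 5 genes the mutant's mean was nearer to 0. RPS22B, RPS30A, RPS28B, RPS26A and RPS22A lay at the other end, from -0.37 to -0.28, and all 5 moved to positive values with median centring or spike-in centring. Median centring moved the median difference to 0.63 and called 7 members, all nearer to 0 in the mutant. The share of all genes called with median centring was not computed. The 24 genes for proteins shared with bacteria had a median difference of 0.42, and the 32 for proteins not found in bacteria had 0.07. This contrast between groups was not tested.

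**Figure D3:**
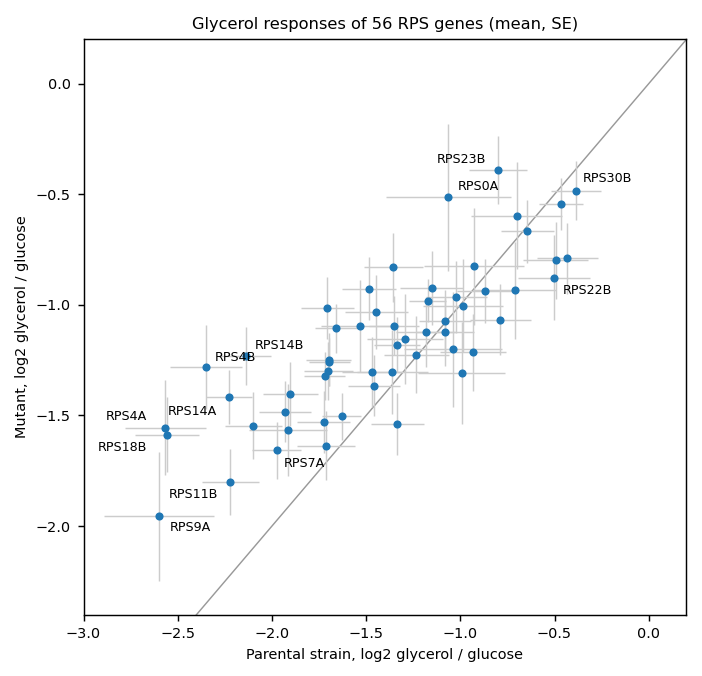
Log2 glycerol over glucose ratio of the 56 RPS genes in the parental strain (horizontal axis) and in the mutant (vertical axis), with the SE of each fit as error bars. The line marks equal ratios. The 41 points above it had a smaller fall in the mutant, among them RPS4A, RPS4B, RPS14A, RPS14B and RPS18B.

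Within pairs, A and B differed by under 0.25 in 11 of 24 families in the parental glycerol response and in 8 of 24 in the mutant's. The test took the difference of the ratios of A and B within each array, over 60 A/B named pairs on the array. Of these, 24 are RPS pairs and 32 are RPL pairs, which encode large-subunit proteins. In the parental glycerol response 6 of 24 RPS pairs differed at an adjusted p under 0.05, or 25%, where 28.3% of all 60 pairs were called. In the mutant 3 of 24 differed, or 12.5%, against 23.3% of all pairs. Of the 32 RPL pairs, 9 were called in the parental response and 8 in the mutant's. The shares of RPS pairs were thus not above those of all 60 pairs, which include the RPS pairs and are otherwise mostly RPL pairs. The median size of the difference was 0.27 and 0.29 in RPS pairs and 0.23 and 0.26 in the other pairs.

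RPS7 and RPS18 parted furthest in the parental response, and RPS26 did in the mutant's. RPS7A and RPS7B encode eS7, a body protein that is ubiquitinated when ribosomes stall. The difference A minus B in the parental strain was -1.13 and -1.25 on the arrays, with A lower on both (fitted -1.19 ± 0.15 SE, adjusted p = 0.000171), since RPS7A stood at -1.97 and RPS7B at -0.79. In the mutant it was -0.76 and -0.43 (fitted -0.59 ± 0.15 SE, adjusted p = 0.0135). For RPS18 the B copy was the lower on every array, by 1.11 and 1.04 in the parental strain (fitted 1.07 ± 0.13 SE, adjusted p = 0.000171) and by 0.73 and 0.59 in the mutant (fitted 0.66 ± 0.13 SE, adjusted p = 0.00605). Both parental calls held under all 19 alternatives. In the mutant, the RPS7 and RPS18 calls each ended without the array of slide row 1.

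RPS26B also fell further than RPS26A, by 0.68 and 0.99 in the parental strain (fitted 0.84 ± 0.15 SE, adjusted p = 0.00214) and by 0.61 and 0.87 in the mutant (fitted 0.74 ± 0.15 SE, adjusted p = 0.00605). RPS26A is much the brighter probe, with 56012.2 and 64076.8 units in the parental glucose channel against 13951.5 and 22318.5 for RPS26B. The parental call held under all 19 alternatives with a test, with values down to 0.51, and the value in the authors' deposited table was 0.40. The mutant call ended when loess was fitted without RPS and RPL spots, with median centring, with spike-in centring and without the array of slide row 2. RPS9A fell further than RPS9B in the parental strain, with A minus B at -1.003 and -0.745 (fitted -0.87 ± 0.21 SE, adjusted p = 0.00993). RPS25A fell further than RPS25B, at -0.80 and -0.31 (fitted -0.56 ± 0.15 SE, adjusted p = 0.018). The RPS9 and RPS25 calls ended without the parental array of slide row 1. In the mutant these pairs were not called, at -0.43 for RPS9 and -0.42 for RPS25 (adjusted p = 0.14 and 0.059).

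The difference between the strains in A minus B was called for 0 of 24 RPS pairs and 0 of all 60 in limma. RPS28 had the widest, 0.73 (95% interval -0.03 to 1.49, adjusted p = 0.35), and RPS7 followed with 0.60 (interval 0.13 to 1.06, adjusted p = 0.264). RPS0 was next with 0.45 (interval -0.08 to 0.98, adjusted p = 0.434). Among pairs that were not called, RPS10, for a head protein at the messenger RNA entry, was the tightest in the parental strain by array values, at 0.03 and 0.02 (fitted 0.02, interval -0.24 to 0.28). RPS27, for a zinc-binding protein, had a fitted difference of 0.01 that came from arrays of opposite sign, 0.34 and -0.32 (interval -0.37 to 0.40). RPS30 stood at -0.05 (interval -0.31 to 0.21). Differences within these intervals could not be resolved with 2 arrays.

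**Figure D4:**
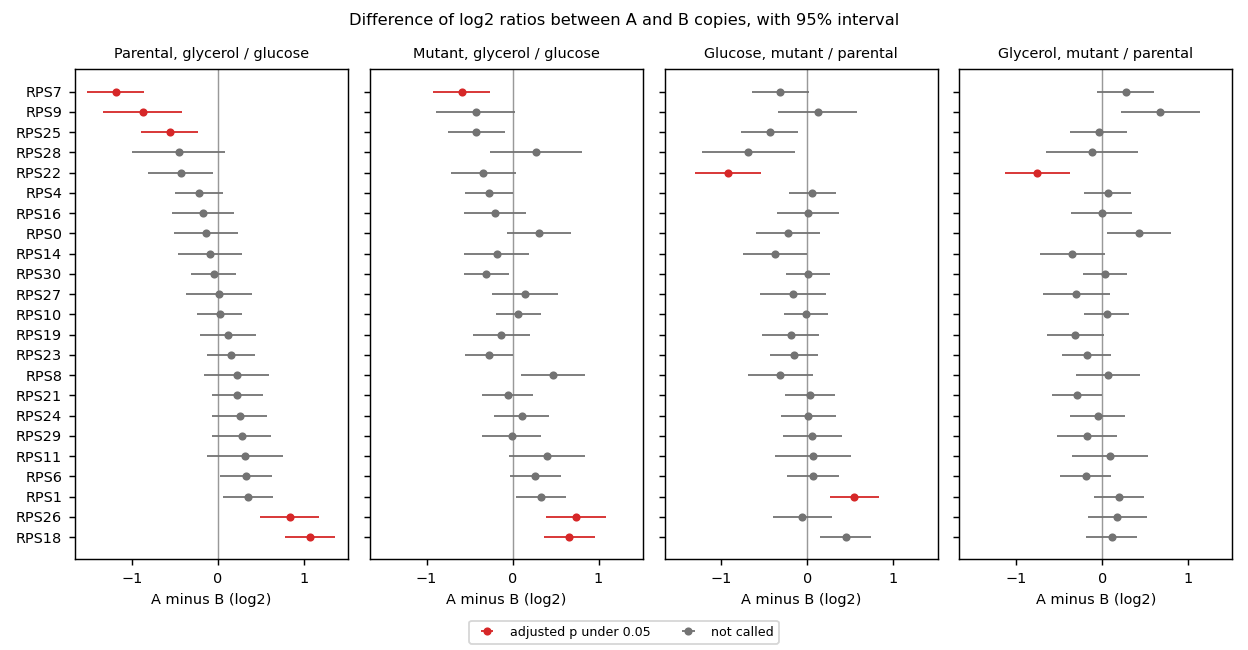
Difference of log2 ratios, A minus B (horizontal axis), for 23 of the 24 RPS pairs (vertical axis, ordered by the parental glycerol response) in the 4 comparisons. Points are fitted means with 95% intervals, coloured where the adjusted p is under 0.05. RPS7 and RPS18 lie at -1.19 and 1.07 in the parental glycerol response, and RPS22 is the coloured pair below 0 in both comparisons of the strains.

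In glucose 1 RPS transcript, RPS22B, was called different between the mutant and the parental strain. The median log2 ratio was 0.12, with 0.02 and 0.26 on the arrays, and the members ran from -0.43 for RPS30B to 0.97 for RPS22B. The direction of this median depends on scaling, as it was -1.45 with spike-in centring, where the median of all genes was -1.58 and the RPS genes thus stood 0.13 above the median gene. In limma 1 of 56 was called higher, or 1.79%, where 3.5% of all genes tested were, and 0 were called lower, where 3.54% of all genes tested were. Another 16 had an unadjusted p under 0.05 without a call, and the share of all genes tested at that threshold was not computed. On both arrays 28 members were above 0, where 37% of all genes tested were, and 13 were below, for which the share of all genes was not computed.

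The called gene was RPS22B, one of the pair for uS8. Its log2 ratios were 0.96 and 0.97, and its signals were 1047.8 and 1153.5 units for the mutant against 620.5 and 826.8 for the parental strain. The fitted ratio was 0.97 ± 0.19 (SE, adjusted p = 0.0272), or 1.95-fold higher, and with spike-in centring it was -0.63, which lies above the median gene of that scaling. The call held under 13 of 19 alternatives. It turned to a call of lower with spike-in centring and ended with median centring, without either array of this comparison and without either array of the parental glycerol response. RPS1A, RPS31, RPS0B and RPS19B followed, at 0.59, 0.52, 0.51 and 0.48 with adjusted p of 0.0993, 0.0822, 0.251 and 0.0695, and all 4 were below 0 with spike-in centring. RPS31 encodes eS31 as a fusion with ubiquitin, and its arrays were 0.51 and 0.54. At the low end lay RPS30B, RPS30A, RPS14A, RPS27A and RPS11B, from -0.43 to -0.30, and the lowest adjusted p among them was 0.0594 for RPS27A (-0.41 and -0.34).

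In glycerol the mutant's RPS transcripts lay above the parental ones for most members, on the scale of the median gene. The median log2 ratio was 0.32, with 0.39 and 0.22 on the arrays, and with spike-in centring it was -0.33, still 0.36 above the median of all genes, which lay at -0.69. The members ran from -0.15 for RPS30B to 1.00 for RPS9A, and 41 were above 0 on both arrays, where 32.4% of all genes tested were. Below 0 on both arrays were 3 members, and the share of all genes below was not computed. In limma 3 of 56 were called higher, or 5.36%, where 3.24% of all genes tested were, and 0 were called lower, where 0.88% were. Of the 56, 22 had an unadjusted p under 0.05, and the share of all genes tested at that threshold was not computed. This comparison shares its RNA conditions with both glycerol responses, so it is no separate support for the difference between them. The RPL median was 0.35 here and 0.02 in glucose, and HMO1 fell here (-0.53, adjusted p = 0.0255).

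RPS22B was called again, with 1.24 and 0.52 (fitted 0.88 ± 0.19 SE, adjusted p = 0.0458). RPS8A (YBL072C), for the body protein eS8, had 0.67 and 0.62 (fitted 0.64 ± 0.14 SE, adjusted p = 0.0452). RPS14B (YJL191W) had 0.43 and 0.77 (fitted 0.60 ± 0.13 SE, adjusted p = 0.0454). All 6 of these array values were above 0. The calls are narrow: RPS22B kept its call under 9 of 19 alternatives, RPS8A under 9 and RPS14B under 6. All 3 calls ended with the scanner software's processed ratios, with median centring, with spike-in centring and with no signal filter, and without either array of mutant over parental in glucose, either array of the parental glycerol response or the slide row 1 array of this comparison. With spike-in centring RPS22B was at 0.24, RPS8A at -0.02 and RPS14B at -0.04. RPS9A had the largest mean, from 1.37 and 0.62 (fitted 1.00 ± 0.29 SE, adjusted p = 0.114), and RPS0A was next with 1.47 and 0.27 (fitted 0.87 ± 0.33 SE, adjusted p = 0.197). Both were higher on the array of slide row 1. RPS31 had 0.73 and 0.54 (fitted 0.64 ± 0.15 SE, adjusted p = 0.0617). RPS30B, RPS30A, RPS27A, RPS7B and RPS12 were the lowest, between -0.15 and -0.01, with adjusted p of at least 0.56.

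RPS22 was the RPS pair that differed in both comparisons of the strains. In glucose A minus B was -1.15 and -0.70 (fitted -0.92 ± 0.17 SE, adjusted p = 0.0201), with RPS22A at 0.04 and RPS22B at 0.97. In glycerol it was -1.03 and -0.48 (fitted -0.75 ± 0.17 SE, adjusted p = 0.0357), with RPS22A at 0.12. The B copy was thus the higher on all 4 arrays. RPS1 was the other pair called in glucose, with A above B by 0.34 and 0.75 (fitted 0.55 ± 0.13 SE, adjusted p = 0.0461). That made 2 of 24 RPS pairs in glucose, or 8.33%, the share of all 60 pairs called there being 8.33% too, and 1 of 24 in glycerol, or 4.17%, against 5% of all pairs. All 3 calls ended with the processed ratios, with median or spike-in centring and without either array of mutant over parental in glucose, while A minus B for RPS22 stayed between -1.15 and -0.70 in glucose and between -1.03 and -0.48 in glycerol. RPS28 had a wide difference in glucose that was not called, -0.38 and -0.99 (fitted -0.69 ± 0.24 SE, adjusted p = 0.105). In glycerol RPS9 had 0.96 and 0.40 (adjusted p = 0.127) and RPS0 had 0.61 and 0.24 (adjusted p = 0.338), neither of them called.

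**Figure D5:**
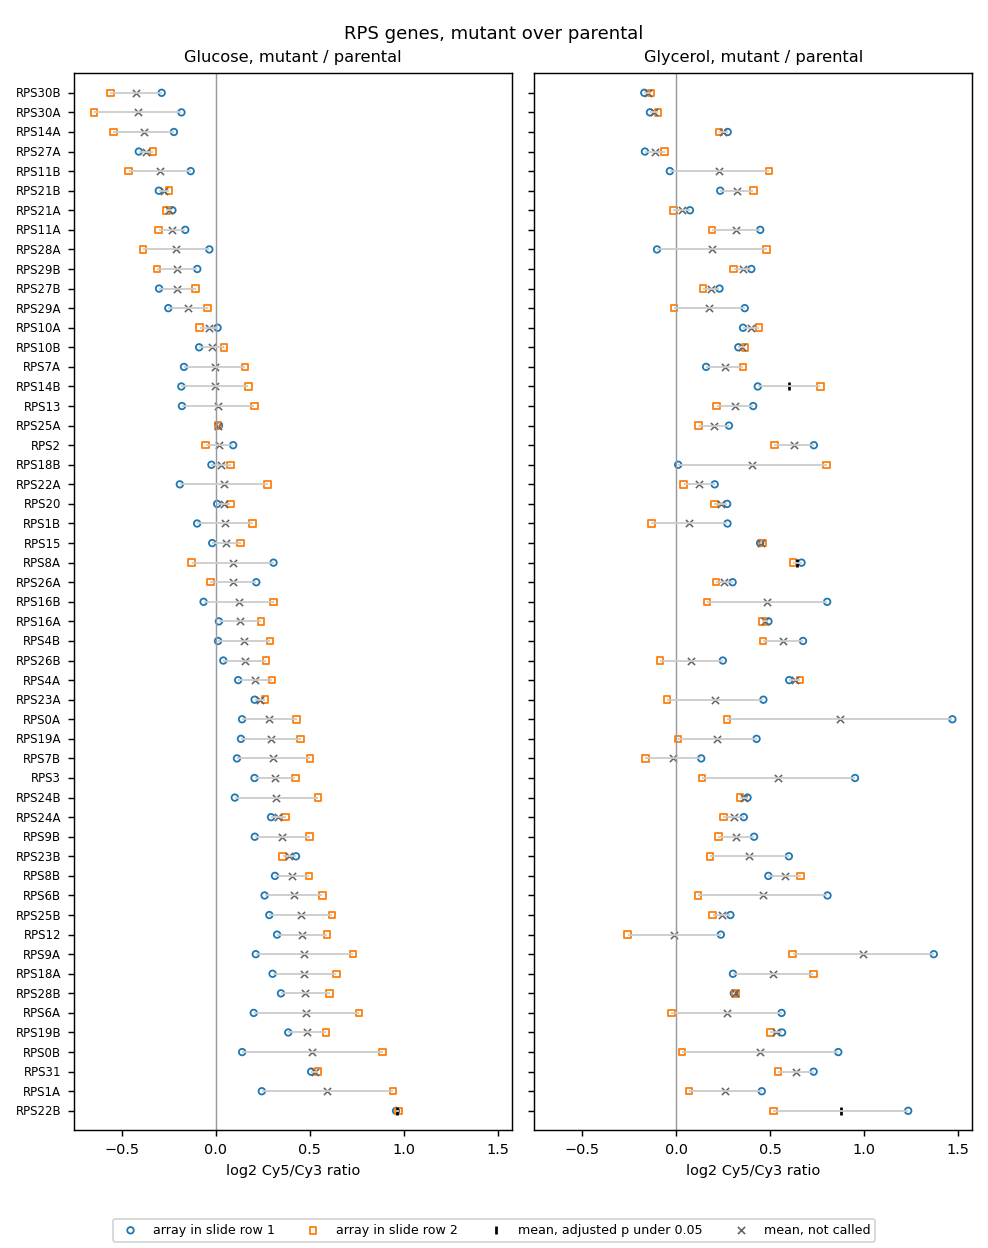
Log2 Cy5/Cy3 ratio (horizontal axis) of 53 of the 56 RPS genes (vertical axis, ordered by the mean in glucose) for mutant over parental in glucose (left) and in glycerol (right), with symbols as circles and squares for the 2 arrays, bars for called means and crosses for means not called. RPS22B is called in both, and RPS8A and RPS14B in glycerol; with spike-in centring the medians of both comparisons fall below 0.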

How the data were processed

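RNA of paired cultures was hybridised to two-colour Agilent yeast arrays, 8 on 1 slide, and per the labels' protocols the labelling started from 100 ng of RNA plus spike-ins, with Cy5 for the first-named RNA and Cy3 for the other. The deposited scanner files hold the intensity of each spot as median signal and local background, the processed intensity, its log10 ratio of red over green and flags, and per the file headers Agilent Feature Extraction 10.10.1.1 made them. The authors' deposited table gives a log ratio per probe with both arrays combined, read here as log2 ratios, made with limma (version not stated) per the submitters' processing notes. Its log base, centring and direction are not stated. Its columns were set against the log2 ratios normalized here from the scanner signals, averaged over both arrays. They correlated at -0.995, 0.992, 0.982 and 0.982 with slopes near 1 in size, so base 2 was inferred and the parental glycerol column was turned. The column medians of the authors' table were 0.10, -0.07, -0.03 and -0.03.

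Median signals were background-corrected (normexp, offset 50) and normalized by loess within each array in limma 3.58.1 (R 4.3.3), since mean signals were not used here. The 2 spots of a gene were averaged. A gene entered the test if its 2 spots passed the background flag in all channels of any of the 4 conditions. A linear model over all 8 arrays with a coefficient per comparison gave moderated tests, adjusted by Benjamini-Hochberg over 5343 genes, and pairs over 60 A/B pairs, with a threshold of 0.05. The adjusted p-values in the text come from these limma fits, never from the deposited files. The scripts were tested on simulated data.

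Symbols came from RefSeq R64, where 5756 of 6256 genes matched. Named with values were the 5 lowest and 5 highest members of each comparison, members not called in a glycerol response, members called against the majority or in the difference of responses, pairs called, and the 3 widest pairs; a few of these are not reported here. RPS13, RPS0B, RPS23A, RPS14B in the glycerol responses and RPS10, RPS27 and RPS30 as pairs were chosen after their values were seen. The members and lists were chosen with earlier results of these data known. The number of arrays limits the precision, and p-values measure the spread between replicate arrays pooled over the 4 comparisons (4 residual degrees of freedom), whose replicates the labels call biological. Genome and probe sequences were not used here.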

Additional observations from a re-analysis of the deposited data

Results flagged for a closer look

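In 5 members both arrays of mutant over parental were below 0 in glucose and both were above 0 in glycerol. The share of all genes tested with this pattern was not computed, so the count is not read as particular to the RPS genes. The differences, glycerol minus glucose, were 0.64 for RPS14A, 0.60 for RPS21B, 0.56 for RPS29B, 0.55 for RPS11A and 0.39 for RPS27B. RPS14A had -0.22 and -0.55 in glucose and 0.27 and 0.23 in glycerol. RPS21B had -0.30 and -0.25, then 0.23 and 0.41. RPS29B had -0.10 and -0.31, then 0.40 and 0.31. These directions hold relative to the median gene of each array. RPS11A had -0.16 and -0.31, then 0.45 and 0.19, and RPS27B had -0.30 and -0.11, then 0.23 and 0.14. The difference on these 4 arrays was not tested. The same interaction measured on the other 4 arrays, as the difference of the glycerol responses, had limma adjusted p of 0.0564 for RPS14A, 0.175 for RPS21B, 0.629 for RPS29B, 0.21 for RPS11A and 0.904 for RPS27B.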

How the results depend on the processing

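The RPS medians of both glycerol responses were below 0 under every setting run, while the calls between strains depended on scaling and on single arrays. Relative to the median of all genes and with all arrays, the RPS median lay between -1.72 and -1.31 in the parental glycerol response, -1.35 and -1.15 in the mutant's, 0.10 and 0.14 for the strains in glucose, 0.29 and 0.36 in glycerol, and 0.16 and 0.35 for the difference of responses. With an array left out these ranges were -1.53 to -1.18, -1.30 to -1.04, 0.015 to 0.26, 0.21 to 0.38 and 0.0088 to 0.31. Spike-in centring rests on the untested assumption that the spike-ins were balanced between the dyes. Where a value below moved, the cause was not tested. RPS30A, RPS30B and RPS22B were the dimmest members in the glucose channel, which may limit their ratios, and this was not tested.

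Members called in the order parental response, mutant response, glucose, glycerol and difference were 56, 53, 1, 3 and 0. In glycerol the count was 0 with the processed ratio, median centring and no filter, 1 with slide row as a replicate block and 17 with the loop model, which fits the 4 conditions jointly. With spike-in centring 56 were called lower in glucose, 4 lower in glycerol and 48 higher in the difference. In glucose the count was 0 with median centring, 2 with no filter, 6 with the loop model and 3 with the last spot alone. In the difference it was 1 with loess fitted without RPS and RPL spots, 7 with median centring, 12 with the loop model and 1 with the first spot alone. With spike-in centring the median of all genes itself lay below 0 in both comparisons of the strains. Shares over all genes or all pairs were not computed under these other settings or with arrays left out. The counts here and below are thus not read as particular to the RPS genes. Slide row as a replicate block tests pairing by row, since the labels carry no replicate numbers.

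Pairs called were 6, 3, 2, 1 and 0. In the mutant response there were 4 with loess fitted without RPS and RPL spots, 3 with median or spike-in centring and 3 without its slide row 2 array, with A lower in most of them, 6 with the loop model, 6 with the replicate block and 5 with the last spot. In glucose there were 1 with an offset of 0 or the first spot, 0 with the processed ratio or either centring, and 4 with the loop model or the replicate block. In glycerol there were 0 with the processed ratio, either centring or the first spot, and 2 with the loop model or the replicate block. In the difference there were 2 with the loop model.

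The parental median was -1.74 with loess without RPS and RPL spots, -1.86 with median centring, -3.92 with spike-in centring and -1.62 in the authors' deposited table. The mutant median was -2.53 with spike-in centring and -1.41 in the authors' deposited table. With spike-in centring the strain medians were -1.45 and -0.33, and the median difference was 1.32. With median centring the median difference was 0.63.

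Leaving out each array in turn gave 41 to 55, 43 to 54, 0 to 2, 0 to 6 and 0 to 3 members called, and 4 to 6, 2 to 5, 0 to 3, 0 to 2 and 0 to 0 pairs. The lowest counts in the glycerol responses came without parental slide row 1 (41) and mutant slide row 2 (43). Medians ran from -1.52 to -1.20, -1.29 to -1.01, 0.02 to 0.26, 0.22 to 0.39 and 0.02 to 0.31.

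Single members turned sign as follows. In glycerol RPS12 was at 0.0425 with loess without RPS and RPL spots, 0.0354 with median centring, 0.13 with the loop model, 0.0019 with the first spot, 0.15 in the authors' deposited table and between -0.26 and 0.24 with an array left out. RPS7B was at 0.0821 with median centring and between -0.16 and 0.13 with an array left out. RPS0A in the mutant response was at 0.15 without slide row 2 and at -1.18 without slide row 1. With spike-in centring RPS19B, RPS0B, RPS31, RPS1A and RPS22B in glucose were at -1.13, -1.05, -0.99, -1.04 and -0.63, and RPS31, RPS8A and RPS14B in glycerol at -0.0596, -0.0174 and -0.0434. In the difference, RPS22B, RPS30A, RPS28B, RPS26A and RPS22A were at 0.11, 0.0012, 0.21, 0.0593 and 0.15 with median centring and at 0.80, 0.69, 0.90, 0.74 and 0.84 with spike-in centring. Without parental slide row 2, RPS28B, RPS26A and RPS22A were at 0.27, 0.0802 and 0.0001, and without slide row 1 at -0.90, -0.69 and -0.56. RPS26A was at 0.0361 in the authors' deposited table. Of the other settings for named members and pairs with all arrays, 684 kept direction and, where a test was made, call, 46 gained a call and 37 lost it. The authors' deposited table is among these settings and has no test, so only its direction was compared.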

Other observations

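Some RPS genes lie near each other in the gene order of RefSeq R64. RPS14B and RPS22A are adjacent on chromosome X and stood at -2.14 and -0.93 in the parental glycerol response and at -1.23 and -1.22 in the mutant's. RPS6 and RPS9 lie 8 genes apart in both copies. RPS6A and RPS9A on chromosome XVI stood at -0.71 and -2.60, and RPS6B and RPS9B on chromosome II at -1.04 and -1.73. RPS6A and RPS9A thus lay at nearly opposite ends of the range. No test was made of these positions.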
